A study of Mus musculus with 10 samples.

Results

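The comparison described here set mouse regulatory T cells carrying a mutant of the phosphodiesterase PDE3B, H801A, a histidine-to-alanine substitution, against the same kind of cells carrying the empty retroviral vector. It takes 2 of the 10 arrays of the study, chosen by their labels: the array of GITR+ CD4+ cells transduced with MigR1-PDE3B(H801A) and that of cells transduced with empty MigR1. Each group is 1 array, so no difference below has a replicate check and none was tested. The study measured RNA of mouse CD4 T cells on Affymetrix mouse expression arrays, 1 array per group. The other arrays are 1 of cells with MigR1-PDE3B and 7 of cells sorted from mice without transduction, here called the sorted arrays.

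The vector arrays share 1 protocol and differ by their labels in the insert. With 1 array each, differences between cultures, transfers, recipients or sorts cannot be told apart from the insert. Donor CD25+ CD4+ cells came from C57BL/6 mice labelled as female and aged 6 to 8 weeks. They were cultured with 100 ng/ml anti-CD3, 100 ng/ml anti-CD28 and 100 U/ml IL-2, and were transduced on days 1 and 2. By the protocol such cultures usually held over 70% Foxp3+ cells on day 5, of which over 55% were transduced. They were then mixed with CD25- CD4+ cells of B6.SJL (Ly5.1+) mice that carried the same vector, and transferred into TCRalpha-deficient recipients. The insert thus also differed in the cells transferred alongside. After 3 weeks, cells positive for GFP (the marker gene of MigR1), GITR and CD4 and negative for Ly5.1 were sorted from pooled lymph node and spleen. The cells therefore had been activated in culture, had lived in hosts without their own alpha beta T cells, and were selected by GITR, not by Foxp3 itself. The sorted arrays, from mice labelled as female and aged 6 to 8 weeks, are used below as a range. They hold GFP- CD25-, GFP- CD25+ and GFP+ (GFPfoxp3) CD4+ cells of Foxp3(gfp/gfp) mice, whose knockin allele makes a fusion of GFP and Foxp3. They also hold GFP+ CD4+ cells of Foxp3(gfpko/wt) mice (GFPko), in which GFP replaces Foxp3. Of the 7, 3 came from mice given 50 ng/g IL-2, namely the GFP- CD25+, GFPfoxp3 and GFPko cells. These mice were backcrosses to C57BL/6, unlike the donors of the vector arrays.

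PDE3B hydrolyses cyclic AMP and so ends its signal. Cyclic AMP is made by adenylyl cyclases under receptors that couple to the stimulatory G protein, and acts through protein kinase A and the Epac exchange factors. Protein kinase A phosphorylates CREB, a transcription factor that binds the cyclic AMP response element, and it dampens signalling from the T cell receptor. Regulatory T cells are defined by the transcription factor Foxp3. They depend on IL-2 from other cells and are known for a high content of cyclic AMP.

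The promoter sequences that bear on this pathway are shown first. The response element (CRE, TGACGTCA, which reads the same on both strands) was searched in the 250 bases before each RefSeq start (GRCm38.p6), a gene counting as a match if any of its starts had one. Of the genes with a promoter in the table, the element was found for 2 of 89 genes at least 2-fold higher with H801A (2.25%) and for 1 of 132 at least 2-fold lower (0.758%), beside 2.85% of 9689 measured genes and 1.77% of all 27025. The 3 genes are Ing3, a subunit of a histone acetyltransferase complex, and Irf2bpl, both higher, and Ccdc86, which was lower. They are named for the match, after their values were seen, and on their second probe sets none of the 3 passed 2-fold (0.05 for Ing3, 0.22 for Irf2bpl and -0.33 for Ccdc86). The shorter site TGACG, searched on both strands and contained in the full element, was found for 25.8% of the higher and 28.0% of the lower genes, beside 30.1% of measured genes. The fourth sequence is from Hspa1b, the gene of the inducible chaperone Hsp70, which had one of the largest increases. It is shown because it holds a heat shock element core (GAANNTTC, both strands), found for 2.25% of the higher, 10.6% of the lower and 5.98% of measured genes. Capitals mark the match, and all sequences run 5′ to 3′ along the gene's strand. Those of the 3 genes with the response element stop at the start, and the Hspa1b match spans positions -104 to -97 from it. Ing3 is at chr6:21949486-21949570 (plus strand), Irf2bpl at chr12:86884815-86884884 (minus), Ccdc86 at chr19:10949267-10949329 (minus) and Hspa1b at chr17:34959295-34959382 (minus).
Ing3: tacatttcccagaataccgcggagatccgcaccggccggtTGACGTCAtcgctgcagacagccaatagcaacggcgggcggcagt
Irf2bpl: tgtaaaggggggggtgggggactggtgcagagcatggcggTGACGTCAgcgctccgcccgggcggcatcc
Ccdc86: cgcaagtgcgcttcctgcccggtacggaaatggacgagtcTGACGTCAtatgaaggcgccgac
Hspa1b: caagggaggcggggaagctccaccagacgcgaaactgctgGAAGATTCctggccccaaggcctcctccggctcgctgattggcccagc

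With these matches the levels were as follows, all as log2 values on the empty, PDE3B and H801A arrays in that order. Ing3 lay at 7.13, 7.97 and 8.24, and Irf2bpl at 8.55, 9.54 and 9.55. Ccdc86 lay at 5.54, 4.74 and 4.47. The empty array was the lowest of the 3 in Ing3 and Irf2bpl and the highest in Ccdc86. A difference of either insert from the empty vector subtracts the same empty array, so the 2 are not independent, here and wherever the 3 values are given below.

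The arrays were checked against their labels before any difference was read. Xist, the RNA of the silenced X chromosome, lay at 3.91 on the empty, 3.31 on the PDE3B and 3.94 on the H801A array but between 12.61 and 12.81 on the 7 arrays of sorted cells. The Y-linked gene Eif2s3y lay at 9.55, 9.95 and 9.65 beside at most 3.19 on the sorted cells, and Kdm5d at 8.31, 8.48 and 8.57 beside at most 2.48. These levels go against the label female on the 3 vector arrays, on both sides of the comparison. Another Y-linked gene, Uty, lay at 4.94, 4.88 and 3.85 beside at most 3.44 on the sorted cells. Uty was thus itself past 2-fold between the empty and the H801A array (-1.09), while its second probe set gave 0.28. The gap between 3′ and 5′ probe sets of Actb was 5.87 log2 units on the empty and 5.95 on the H801A array, beside 2.70 to 3.80 on the sorted cells. The 3′ probe set of 18S ribosomal RNA was brighter with H801A (9.76) than with the empty vector (8.89). Its part in the differences below was not tested.

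Of 11939 genes measured, 111 were at least 2-fold higher with H801A than with the empty vector (0.93%) and 163 at least 2-fold lower (1.37%). Together they are 274 genes (2.29%). The median difference over all genes was -0.03 log2 units, with quartiles of -0.22 and 0.12. The excess of lower genes depended on the scale: with both arrays centred on their medians over the measured genes, 152 were higher and 122 lower, so that 55.5% were higher in place of 40.5%. Every other alternative kept more lower than higher genes. Loess scaling gave 123 higher and 138 lower, and quantile normalization 117 and 188. At least 3-fold differences were seen for 22 genes upward and 31 downward. The differences lay mostly among dim genes. With the genes ranked by level into 5 equal bins, 2 were higher and 3 lower in the brightest bin, and 65 and 87 in the second dimmest. On the scale as deposited the median difference was negative in every bin, at -0.09, -0.06 and -0.04 from the middle to the brightest. More genes were thus lower than higher at every level, and counts of lower list members below are to be read beside this lean. Centring raised every difference alike and the median of all genes from -0.03 to 0.07. Counts of list members higher or lower at all therefore depend on the scale. A gene was taken as above background where it reached the median of all probe sets on its array, 3.18 on the empty and 3.17 on the H801A array. By that rule 85 of the higher and 128 of the lower genes were above background on both arrays. For 26 higher genes the empty array was below it, and for 35 lower genes the H801A array was. Of the 11939 genes, 987 were below it on both arrays and were kept through other arrays.

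**Figure D1:**
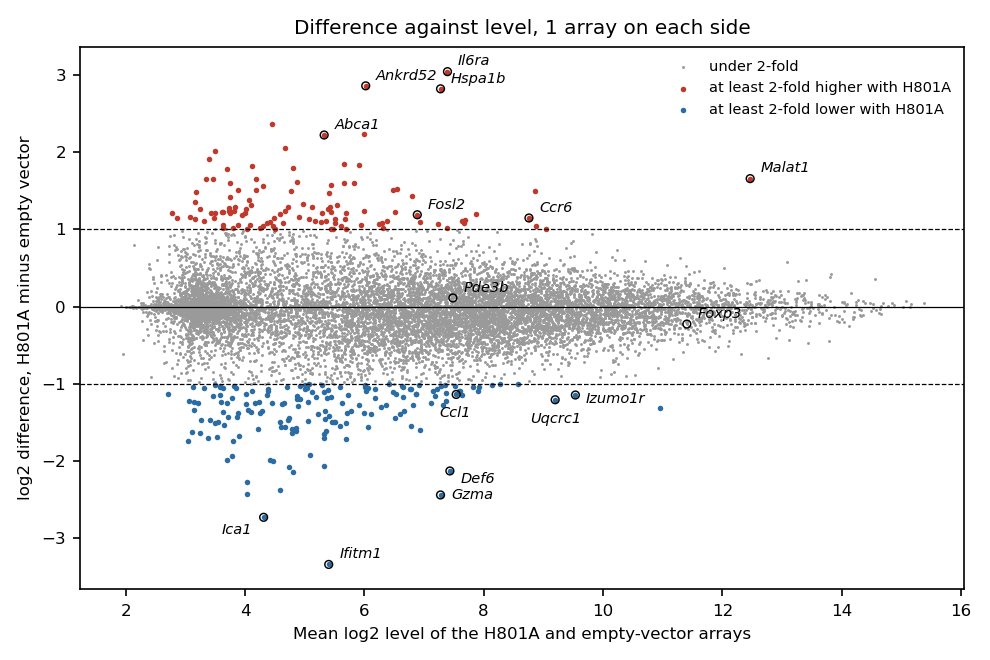
log2 difference between the H801A and the empty-vector array (y axis) against the mean log2 level of the 2 arrays (x axis), 1 point per gene for 11939 genes. The dashed lines mark 2-fold; the 111 genes above (red) and 163 below (blue) crowd at low levels, while Foxp3 and Pde3b lie near 0.

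For scale, the PDE3B array differed at least 2-fold from the empty array in 650 genes (5.44%), 143 higher and 507 lower. The H801A array differed from the PDE3B array in 363 genes (3.04%), of which 275 were higher and 88 lower with H801A. The median size of a difference was 0.18 log2 units for H801A against empty, 0.23 for PDE3B against empty and 0.19 for H801A against PDE3B. Untreated GFPfoxp3 and GFPko cells, 2 populations sorted without transduction, differed at least 2-fold in 946 genes (7.92%). H801A against empty vector thus had the fewest such genes of these 4 comparisons of single arrays, which is a count and was not tested.

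The gene carried by the vector and the genes used in the sort all differed by less than 2-fold, with the largest differences in Cd4 and Il2ra. Pde3b, read by its 1 probe set, lay at 7.43 on the empty, 6.91 on the PDE3B and 7.54 on the H801A array, a difference of 0.11 between H801A and empty. Neither array with a PDE3B insert stood clearly above the empty one. The labels do not say where this probe set lies on the transcript or whether the inserts hold that stretch, so Pde3b does not check the labels and the directions rest on the labels alone. Foxp3 lay at 11.52, 11.26 and 11.29 (difference -0.23), above the highest of the sorted arrays (10.86) on all 3. Tnfrsf18, which encodes GITR, lay at 11.12, 10.83 and 10.91 (-0.21). Il2ra, which encodes CD25, a chain of the IL-2 receptor, lay at 10.54, 9.87 and 10.04 (-0.49). Ptprc, which encodes CD45, lay at 14.07, 14.32 and 14.09 (0.02). Cd4 lay at 9.29, 8.05 and 8.65 (-0.63), while its other probe set was below background on the empty array and above it with H801A (3.02 and 3.57). Foxp3 and Tnfrsf18 were thus far above background on all 3 arrays.

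The largest increase was in Il6ra, the ligand-binding chain of the IL-6 receptor. It lay at 5.87 on the empty, 8.82 on the PDE3B and 8.91 on the H801A array, 3.04 log2 units or 8.23-fold higher with H801A than with the empty vector. On the 7 sorted arrays Il6ra lay between 9.16 and 10.19, so the empty array was low and the H801A array was just under that range. Ankrd52, a subunit of protein phosphatase 6, lay at 4.59, 6.62 and 7.45 (2.86). The H801A and PDE3B arrays exceeded its range of 4.07 to 4.94 on the sorted cells. Hspa1b, whose promoter is shown above, lay at 5.87, 10.38 and 8.69 (2.82). It was highest on the PDE3B array, and its 3 probe sets gave between 0.91 and 2.82. Its brightest probe set can match other transcripts by its design, and the near-identical Hspa1a was below background on the empty array and at it on the H801A array (2.75 and 3.17), so signals of the pair are uncertain.

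Abca1, which exports cholesterol from cells, lay at 4.22, 5.16 and 6.44 (2.22), with the H801A array inside the sorted range of 6.22 to 7.65 and the empty array below it. Arid3b, a DNA-binding protein, lay at 3.91, 4.06 and 5.71 (1.80). Here the PDE3B array stayed near the empty one. Malat1, a nuclear RNA that codes for no protein, was the brightest of the 12 largest increases above background on both arrays, with 11.64, 13.00 and 13.30 (1.66). Its 6 probe sets above background ranged from -0.51 to 2.67, so they did not agree in sign. The other 6 were Gpr160 (2.37), Tbrg3 (2.24), Lca5 (2.06), Ankrd29 (1.84), Ccdc25 (1.83) and Zfp963 (1.82). Lca5, a protein of cilia, went the other way on its second probe set, from 4.07 on the empty array to below background with H801A (2.66). The second probe set of Ankrd29 gave -0.38. Where the empty array was below background a lower bound was taken instead. By it H3f3b, which encodes histone H3.3, was at least 2.76-fold higher with H801A, Slc25a44, a mitochondrial carrier, at least 2.66-fold, Cnr2, a cannabinoid receptor, at least 2.60-fold, Serpinf1, a secreted serpin, at least 2.51-fold and Gm11944 at least 2.43-fold. Second probe sets above background on both arrays gave 0.12 for Slc25a44 and -0.28 for Gm11944, which turns the direction of the latter. H3f3b was highest on the PDE3B array, at 6.22 beside 4.64 with H801A.

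The largest decrease was in Ifitm1, an interferon-induced membrane protein. It lay at 7.07 on the empty, 6.33 on the PDE3B and 3.73 on the H801A array, 3.34 log2 units lower with H801A than with the empty vector. The sorted cells ranged from 2.67 to 5.10, so the empty and PDE3B arrays were above that range and the H801A array was inside it. Gzma, the protease granzyme A of cytotoxic granules, lay at 8.50, 6.76 and 6.06 (-2.44), where only the H801A array was inside the sorted range of 3.15 to 6.11. Both genes were read by 1 probe set. Def6, an exchange factor acting under the T cell receptor, lay at 8.50, 7.09 and 6.37 (-2.13). All 3 were under the sorted range of 9.37 to 10.05, and the H801A array was the lowest. Spry1, an inhibitor of growth factor signalling, lay at 5.48, 3.63 and 3.47 (-2.01). Cdca2, a mitotic partner of protein phosphatase 1, lay at 5.87, 4.31 and 3.73 (-2.14), but its other probe set above background gave 0.11.

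Eif2b1, a subunit of a translation initiation factor, lay at 5.77, 2.72 and 3.69 (-2.08), and on the PDE3B array it was below background. The other 6 were Arhgef5 (-2.37), Fam222b (-2.07), Myl6b (-1.98), Atp9b (-1.92), Sgk3 (-1.71) and Slc35g1 (-1.71). Sgk3 is a kinase related to AKT. It went the other way on its second probe set (0.81), from below background on the empty array (2.38) to 3.20 with H801A. Of the genes below background with H801A, Ica1 was at least 5.67-fold lower than on the empty array. Prkar1b, which holds protein kinase A inactive without cyclic AMP, was at least 4.22-fold lower, Supt3, of the SAGA coactivator complex, at least 4.0-fold, Rapsn, which clusters acetylcholine receptors, at least 2.97-fold and Dram1, a regulator of autophagy, at least 2.94-fold.

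**Figure D2:**
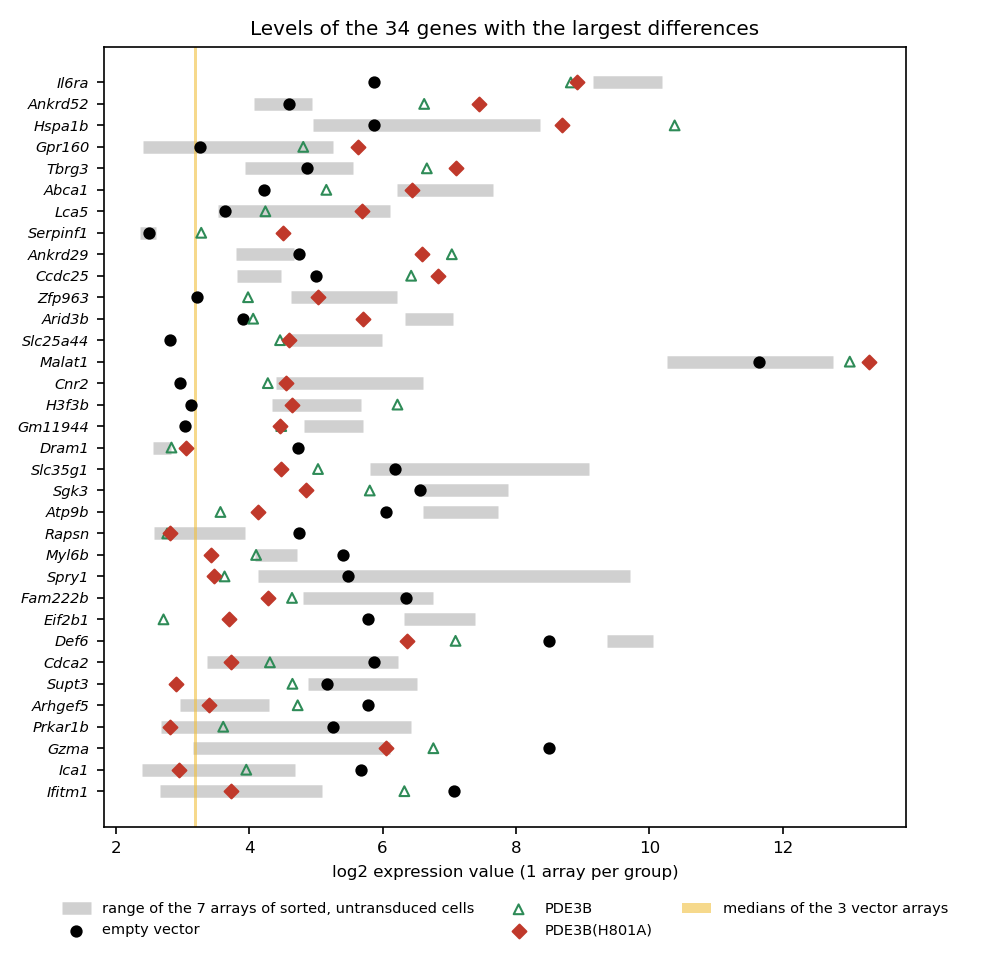
log2 expression values (x axis) of the 34 genes with the largest differences (y axis, ordered by H801A minus empty) on the 3 vector arrays, 1 array each, with the range of the 7 sorted arrays as grey bars and the medians of the vector arrays as a yellow band. In Il6ra the empty array (5.87) stands apart from the other vector arrays (8.82 and 8.91), while in Ifitm1 and Arid3b the PDE3B array lies nearer to the empty one.

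The machinery of cyclic AMP showed few differences of 2-fold. Of 8 measured genes of its synthesis (adenylyl cyclases and stimulatory G proteins) 0 were 2-fold higher or lower, with a median difference of -0.02 beside -0.03 over all genes. However, 3 of the 8 were below background on both arrays, and the median of the other 5 was -0.12. Adcy7, a main cyclase of lymphocytes, lay at 12.57, 12.71 and 12.78 (0.21), though its other probe set above background gave -0.40. Gnas, the stimulatory G protein, lay at 11.18, 10.75 and 11.01 (-0.17). Of 7 receptors and enzymes that raise cyclic AMP, 1 was 2-fold lower. It was Vipr1, a receptor of vasoactive intestinal peptide, at 3.82, 3.80 and 2.48, which as a bound is at least 1.57-fold. The prostaglandin E2 receptors Ptger2 (9.01, 8.62 and 8.83) and Ptger4 (12.73, 12.83 and 12.79) were nearly level. Entpd1, the ectoenzyme CD39 that starts the path from ATP to adenosine, lay at 7.45, 8.22 and 7.93 (0.47), though its probe sets ranged from -0.65 to 0.47.

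The 13 measured phosphodiesterases had a median difference of 0.00, and 0 of them differed 2-fold. Of the 13, 2 were below background on both arrays, and the median of the other 11 was 0.11. Pde4b, which hydrolyses cyclic AMP, lay at 9.30, 9.84 and 9.57 (0.27), and Pde7a, of the same substrate, at 6.54, 7.0 and 7.0 (0.46). Probe sets of Pde7a above background ranged from -0.21 to 0.68. Pde6d, a lipid-binding protein named with this family, lay at 7.55, 6.66 and 6.79 (-0.76). Among 17 effectors, 1 was 2-fold lower, Prkar1b, with 5.25, 3.61 and 2.82. Its only probe set above background is one that can match other transcripts, and without such probe sets the gene gave 0.01. The anchors Akap5 (0.46), Akap8 (0.46) and Akap7 (0.43) were the other members with the largest differences, and the effectors' median was 0.08. Probe sets of Akap5 ranged from -0.21 to 0.46.

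Of 19 cyclic AMP-responsive genes, 1 was 2-fold higher and 0 lower, with 10 members higher at all and a median of 0.08. The 1 gene was Fosl2, a member of the AP-1 factors, at 6.29, 7.12 and 7.48 (1.19), which was above the sorted range of 5.35 to 7.27 with H801A. Rgs2, which limits G protein signals, lay at 7.07, 8.00 and 7.76 (0.69), and all of its probe sets above background gave at least that. Sik1, a kinase induced by CREB, lay at 5.54, 5.52 and 6.02 (0.48), and Nfil3, a transcriptional repressor, at 5.51, 5.79 and 4.93 (-0.59). Among 23 immediate early genes Fosl2 was again the 1 that passed 2-fold upward, with 0 downward and a median of -0.01. Jun, another AP-1 member, was highest with PDE3B, at 4.39, 6.77 and 5.21.

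On the scale as deposited, genes of regulatory T cells were mostly a little lower with H801A than with the empty vector. Of 27 measured, 22 were lower at all, 1 by 2-fold and 0 were 2-fold higher, and the median was -0.23 beside -0.03 over all genes. The 1 gene was Izumo1r, the folate receptor FR4 on these cells, at 10.11, 9.07 and 8.97 (-1.15), inside the sorted range of 8.50 to 11.51 on all 3 arrays. Ebi3, a subunit of IL-35, lay at 10.99, 10.05 and 10.10 (-0.89). Tnfrsf9, the costimulatory receptor 4-1BB, lay at 10.58, 9.35 and 9.70 (-0.88). In all of these the empty array was the highest of the 3. Il10 lay at 7.50, 7.79 and 6.78 (-0.71), where the PDE3B array was instead the highest. In the same samples all 9 measured markers of CD4 T cells were lower with H801A, by a median of -0.30, and their summed level, as log2, was 14.98, 14.80 and 14.74. That all 9 were lower holds for the probe set read for each, and Cd3g was nearly level (-0.03). The other probe sets of Cd28 and Cd4 gave 0.15 and 0.55, the latter from below background on the empty array. The part of these markers in the lower regulatory T cell genes was not tested. Fewer cells of a type and less RNA per cell cannot be told apart in such bulk samples.

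Of 22 inhibitory and costimulatory receptors, 19 were lower and 0 passed 2-fold, with a median of -0.28 beside -0.03 over all genes. Tnfrsf4, Tnfrsf9, Tnfrsf18 and Icos of this list are also in the regulatory T cell list, so the 2 medians are not separate results. Cd160 lay at 6.02, 5.11 and 5.17 (-0.85) and Btla, an inhibitory receptor, at 10.37, 9.52 and 9.55 (-0.82). Tnfrsf4, the costimulatory receptor OX40, lay at 12.17, 11.71 and 11.60 (-0.57). Of 20 genes of T cell receptor signalling, 18 were lower, 0 by 2-fold, with a median of -0.15. Cd3d, Cd3e, Cd3g and Cd247 of this list are also among the CD4 T cell markers. Zap70, the kinase recruited by the receptor, lay at 8.75, 7.91 and 8.03 (-0.72) and Themis at 7.05, 6.89 and 6.25 (-0.80). Of 14 naive T cell genes, 2 were 2-fold higher, Dapl1 at 3.39, 4.65 and 4.64 (1.26) and Igfbp4, which was below background on the empty array and was at least 1.82-fold higher as a bound. Igfbp4 lay at 2.90, 3.99 and 4.05, all far under the sorted range of 10.80 to 13.09, and its probe sets above background ranged from -0.43 to 1.14. The naive list had a median of 0.17, and S1pr1, a receptor for leaving lymph nodes, went the other way with 5.98, 5.26 and 5.27 (-0.71). The 17 genes of activated and memory cells had 0 members past 2-fold and a median of 0.11. Lgals3, which encodes galectin-3, lay at 9.90, 10.15 and 10.51 (0.60), and all 3 arrays exceeded the sorted range of 3.61 to 7.29.

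Cytokines and IL-2 response genes had some of the lowest list medians. Of 11 measured effector cytokines, 2 were 2-fold lower, 0 higher, and the median was -0.49. Csf2, which encodes GM-CSF, lay at 4.30, 3.41 and 2.81, at least 2.19-fold lower with H801A, where it was below background. Lif, a cytokine of the IL-6 family, lay at 5.92, 4.48 and 4.53 (-1.40). Il2 was higher with H801A and below background on the empty array, at 2.76, 3.49 and 3.40. Of 20 IL-2 and STAT5 genes, 17 were lower and 3 of them by 2-fold, with a median of -0.33. The 3 are Lif, Stat5a, a transcription factor of the IL-2 receptor, at 7.23, 6.50 and 6.06 (-1.17), and Jak3, the kinase of the common gamma chain, at 6.52, 3.89 and 5.50 (-1.02). Stat5a was lowest with H801A and Jak3 lowest with PDE3B. Centring the arrays on their medians brought Jak3 to -0.92, under 2-fold. Il2ra, Il2rb, Gzmb, Socs2 and Tnfrsf4 of the IL-2 and STAT5 list are also in the regulatory T cell list.

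On the scale as deposited, most genes of mitosis were a little lower with H801A than with the empty vector, and few by 2-fold. Of 24 mitosis genes, 20 were lower, 1 by 2-fold, with a median of -0.33 for H801A minus empty and -0.58 for PDE3B minus empty, which share the empty array. Against the empty array 9 of them were 2-fold lower with PDE3B. Plk1, a kinase of mitotic entry, lay at 5.07, 3.43 and 3.82 (-1.25). Bub1b, of the spindle checkpoint, lay at 7.65, 6.42 and 6.77 (-0.87), but its probe sets ranged from -0.87 to 0.31. Cenpe, a kinetochore motor, lay at 6.32, 4.68 and 5.71 (-0.61), but its other probe set gave 0.79. Hmmr lay at 6.71, 6.24 and 6.12 (-0.60). On the brightest probe set the empty array was the highest in each of these genes. Of 29 DNA replication genes, 20 were lower and 0 passed 2-fold, with a median of -0.13. Cdc45, of the replicative helicase, lay at 4.50, 3.53 and 3.52 (-0.98), with 0.68 on its other probe set. Tyms, which makes thymidylate, was higher with H801A, at 4.32, 5.30 and 5.17 (0.85).

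Few members of the remaining families passed 2-fold. Of 21 chemokine receptors and ligands, Ccr6, a receptor for CCL20, was 2-fold higher at 8.19, 8.50 and 9.33 (1.15) and Ccl1 2-fold lower at 8.11, 7.41 and 6.97 (-1.14). Ccl1 was above the sorted range of 2.09 to 3.83 on all 3 arrays. Cxcr5, which guides cells to follicles, lay at 5.76, 5.73 and 6.62 (0.86), so that in both receptors the H801A array was the highest and the PDE3B array near the empty one. Of 12 integrin chains 0 passed 2-fold; Itga4 lay at 10.41, 9.81 and 9.50 (-0.91), with probe sets from -0.91 to 1.36. Of 13 cytotoxic genes Gzma was the 1 member past 2-fold. Nkg7, a granule membrane protein, lay at 10.00, 9.90 and 9.35 (-0.64), and the pore protein Prf1, below background on the empty array, lay at 3.17, 4.23 and 3.99. Of 18 heat shock chaperones Hspa1b alone passed 2-fold, 15 were higher at all and the median was 0.06. Of 31 interferon-induced genes, which did not include Ifitm1, 0 passed 2-fold and the median was -0.02. Zbp1, a sensor of nucleic acids, came nearest at 7.97, 7.31 and 6.97 (-0.998), and Mx1, an antiviral GTPase, lay at 5.49, 5.62 and 6.12 (0.63).

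**Figure D3:**
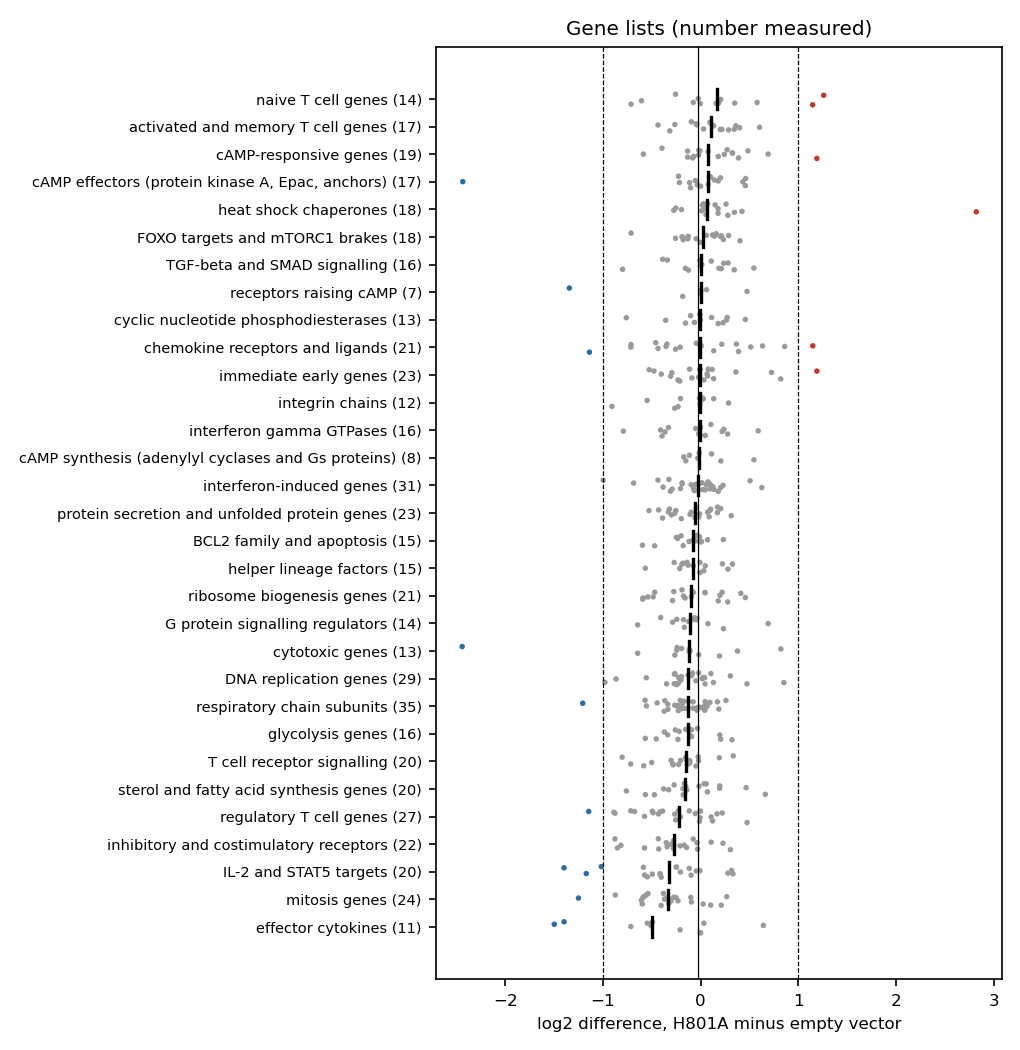
log2 difference between the H801A and the empty-vector array (x axis) for each measured member of 31 gene lists (y axis, with the number measured); black ticks are list medians, dashed lines mark 2-fold, and the thin line is the median of all genes. Medians run from -0.49 for effector cytokines to 0.17 for naive T cell genes, and few members (red higher, blue lower) lie past 2-fold.

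Over all lists, markers of other cells included, 570 distinct genes were measured. Of these, 6 were at least 2-fold higher (1.05%, beside 0.93% of all genes) and 12 lower (2.11%, beside 1.37%). The shares were near those of all genes, and the median difference of the listed genes was -0.08.

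Markers of other cells were dim in most lists, but several of B cells and of plasma cells were bright. Of 9 measured B cell markers 7 were lower with H801A, by a list median of -0.31, close to that of the CD4 T cell markers. Cd74, the invariant chain of class II molecules, lay at 9.03, 8.67 and 8.56, Cd79b, of the B cell receptor, at 7.37, 8.23 and 6.77 and the class II gene H2-Aa at 7.07, 6.67 and 6.65. On the empty array all 3 were above the sorted range, while the B cell genes Cd79a, Blnk and Pax5 were below background on both sides. Cd22, of that list, went the other way and was 2-fold higher, at 5.42, 5.90 and 6.47 (1.05). The part of these markers in the differences was not tested. The summed level of 12 B cell markers, as log2, was 12.72 on the empty, 12.78 on the PDE3B and 12.60 on the H801A array, and Ighm, at 12.50, 12.57 and 12.42, made up most of it. For 16 myeloid and dendritic cell markers the sums were 9.65, 9.60 and 9.51. Cst3, at 8.965, 8.68 and 8.94, made up most of them and was nearly level between empty and H801A (-0.03). Lyz1 (7.32, 7.92 and 6.62) and Lyz2 (4.03, 3.72 and 3.30) were lower with H801A than with the empty vector. Of the 10 measured, 7 were lower and 3 higher. C1qb (5.24, 5.31 and 5.49) and Fcer1g (3.03, 3.03 and 3.34) were among the higher, the latter below background on the empty array. For 11 markers of CD8 T and NK cells the sums were 6.71, 6.77 and 6.77. For 8 plasma cell markers the sums were 11.57, 11.33 and 11.34. Xbp1 (10.84, 10.83 and 10.64) and Prdm1 (9.71, 8.96 and 9.46), the latter also a listed regulatory T cell gene, made up most of them. Of 7 measured, 5 were lower with H801A and 2 higher. Mzb1, a chaperone of antibody secretion, was below background with PDE3B and H801A, at 3.92, 2.17 and 2.17. Jchain, of secreted antibodies, was below it with H801A, at 3.55, 3.22 and 2.72. Igha was higher, at 3.74, 3.18 and 4.28, though its probe sets ranged from -1.07 to 0.54, and Sdc1 was nearly level (0.01). For 7 erythroid markers the sums were 5.94, 5.93 and 5.89, for 10 stromal and endothelial markers 6.13, 6.13 and 6.17, and for 4 gamma delta T cell markers 4.69, 5.20 and 5.12.

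Many genes are read by more than 1 probe set, which gives a second measurement within the same arrays. Of the 274 genes past 2-fold, 75 had a second probe set above background on at least 1 of the 2 arrays, and in 41 of these (54.7%) it differed in the same direction. In 5 (6.67%) it also passed 2-fold in that direction. The median size was 1.22 log2 units on the brightest probe set and 0.05 on the second, signed as the first. Across 4756 genes with 2 such probe sets, which share RNA and array, the differences of the 2 correlated with r = 0.10. For PDE3B against empty the second probe set had the same direction in 118 of 204 genes (57.8%). For GFPfoxp3 against GFPko cells it had the same direction in 305 of 389 (78.4%) and passed 2-fold in 141 (36.2%), with r = 0.45. Most of the 2-fold differences between the H801A and empty arrays that could be read again were thus not seen at that size on the second probe set. In each pair the genes were chosen by their first probe set passing 2-fold. The pairs also differ in the gap between 3′ and 5′ probe sets of Actb. It was 5.87 on the empty and 5.95 on the H801A array, beside 3.07 on GFPfoxp3 and 3.69 on GFPko. The part of this gap in the contrast of the pairs was not tested.

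**Figure D4:**
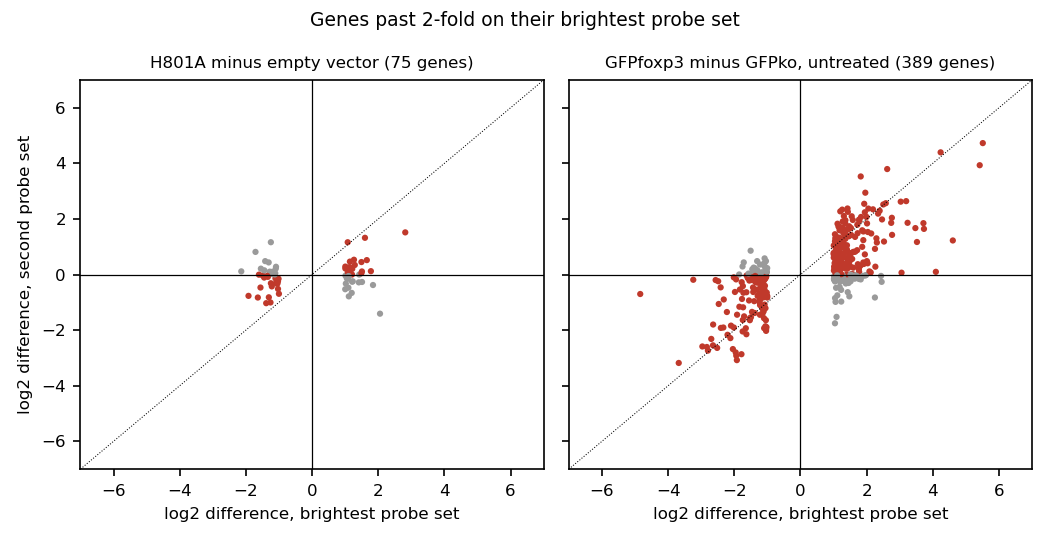
log2 difference on a gene's second brightest probe set (y axis) against that on its brightest (x axis), for genes past 2-fold on the brightest, in H801A minus empty vector (75 genes, left) and GFPfoxp3 minus GFPko (389 genes, right). Red points have the same sign on both (41 and 305 genes); the left points lie near 0 on the y axis, with a median of 0.05, and the right ones spread along the diagonal, with a median of 0.60.

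In 4 genes every probe set above background on at least 1 of the 2 arrays passed 2-fold in the same direction. They are named for this, after their values were seen. Snai2, a transcriptional repressor, gave 1.6 and 1.32 and lay at 5.03, 6.73 and 6.63 on its brightest probe set. Camk2n1, an inhibitor of the kinase CaMKII, gave 1.08 and 1.16 and lay at 7.13, 8.40 and 8.21. Tex261 gave -1.39 and -1.03 and lay at 7.29, 6.54 and 5.90, and Ess2 gave -1.26 and -1.004 and lay at 4.64, 3.82 and 3.39. In Tex261 and Ess2 the H801A array was the lowest of the 3 on both probe sets. On their second probe sets it was below its background of 3.17. These read 4.02 on the empty and 2.99 on the H801A array for Tex261, and 3.84 and 2.84 for Ess2. As bounds against that background both are under 2-fold. In Snai2 and Camk2n1 both probe sets were above background on both arrays.

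The genes past 2-fold were set against the range of the 7 sorted arrays, which neither side of the difference uses. Over all genes the empty array was outside that range for 56.4% and the H801A array for 57.6%. Among the 111 higher genes, the empty array was outside for 72 (64.9%) and the H801A array for 74 (66.7%). Among the 163 lower genes, the empty array was outside for 96 (58.9%) and the H801A array for 127 (77.9%). A low value on the H801A array or a high one on the empty array helped to choose the lower genes, so these shares are a description. Of the lower genes, 54 (33.1%, beside 6.31% of all genes) were inside the range with the empty vector and below it with H801A, and 47 (28.8%, beside 27.0%) were below it on both. Another 23 (14.1%, beside 4.88%), Ifitm1 and Gzma among them, were above it with the empty vector and inside it with H801A.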

How the data were processed

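For each of 45101 probe sets the authors deposited a log2 value per array. All 10 arrays were normalized in 1 set, as the series' design text states, with software and methods not given in the sources used here. Per the labels' protocols, RNA was extracted with Stat-60 and amplified in 2 rounds (MessageAmp II), which shortens the product toward the 3′ end. The log2 scale was read from the values.

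Probe sets were named by the platform annotation, with symbols updated through RefSeq (34754 of 34958 with 1 gene matched). A gene was kept where at least 1 array reached its own median, and was read by its probe set with the highest mean over 10 arrays. Differences are H801A minus empty vector, with no test (Python 3.11.15, pandas 2.3.3, numpy 2.4.6). The calculation was run on a copy of the empty array with large differences planted in genes well above background. That checks the calculation and not the differences reported. Where one side was below its array's median, a fold is a bound against that median. Named were the 12 largest differences each way above background on both arrays, the 5 largest bounds each way, up to 4 members of each of 40 lists, and the sort genes. The members and lists were chosen with earlier results of these data known. Of the 765 entries of the lists, 635 were measured. Alternatives were quantile, median and loess (span 0.3, statsmodels 0.14.6) scaling, other filters, other probe set rules and a 3-fold threshold. With 1 array per group, the number of arrays limits the precision. RefSeq promoters are of GRCm38.p6.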

Additional observations from a re-analysis of the deposited data

How the results depend on the processing

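At a 3-fold threshold 22 genes were higher, 31 lower, and 4 members of the gene lists passed. Under the other alternatives the counts stayed within 1.5 times those reported: 77 (mean of all probe sets) to 152 (centring on medians) higher, 122 (centring) to 188 (quantile normalization) lower, and 13 to 20 list members. Among medians of at least 0.25 in size and genes past 2-fold, the directions that reversed were those of the gamma delta T cell marker list, with a median of -0.052 where both arrays had to be above their medians and -0.013 with the probe set brightest on the 2 arrays, of Gm11944 (-0.28 where both arrays had to be above) and of Prkar1b (0.0079 without cross-matching probe sets). Each of these follows from another probe set being read. Centring also turned the medians of 13 of 40 lists from below to above 0, those of the BCL2 family (-0.07 to 0.02) and interferon-induced genes (-0.02 to 0.07) among them. Several named genes fell under 2-fold with another probe set rule: Hspa1b to 0.91 and Malat1 to 0.52 without cross-matching probe sets, Lca5 to 0.32, Ankrd29 to 0.73, Sgk3 to -0.25 and Slc25a44 to 0.95 as the mean of all probe sets, Atp9b to -0.77 with the probe set brightest on the 2 arrays, and Igfbp4 to 0.25 as the mean. Cdc45 (-1.04) and Zbp1 (-1.02) passed 2-fold under quantile normalization, and Jak3 fell to -0.94 under loess. No paired analysis was possible because each group is 1 array, and no replicate could be left out.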

Other observations

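Metabolic and housekeeping families not described above had medians slightly below 0, which depend on the scale: centring the arrays on their medians raises every difference of H801A minus empty vector alike, and the median of all genes from -0.03 to 0.07. With it the medians of the first 4 lists below come to -0.035, -0.038, -0.063 and 0.00. Of 35 respiratory chain subunits, 24 were lower and 1 by 2-fold, Uqcrc1 of complex III, at 9.80 on the empty, 7.87 on the PDE3B and 8.60 on the H801A array (-1.21 log2 units), and the list's median was -0.13. Of 16 glycolysis genes 13 were lower, 0 by 2-fold, with a median of -0.13; Pkm, the pyruvate kinase, lay at 10.29, 8.41 and 9.73. Of 20 sterol and fatty acid synthesis genes, 13 were lower, with a median of -0.16. Fasn, the fatty acid synthase, lay at 8.54, 7.97 and 7.78 (-0.76), and Insig1, which restrains sterol synthesis, went the other way at 7.38, 7.76 and 8.04 (0.66). Of 21 ribosome biogenesis genes 13 were lower, with a median of -0.10.

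Of 15 genes of the BCL2 family and apoptosis, 12 were lower, 0 by 2-fold, with a median of -0.07, and Bmf, which promotes cell death, lay at 4.45, 4.42 and 3.85. The 18 FOXO targets and mTORC1 brakes split into 9 higher and 9 lower (median 0.03), and the 16 genes of TGF-beta and SMAD signalling into 8 and 8 (median 0.00). Among 23 genes of protein secretion and the unfolded protein response, 15 were lower (median -0.06), and among 14 regulators of G protein signalling 11 were (median -0.11). The 15 helper lineage factors had a median of -0.08; Batf lay at 9.14, 8.64 and 8.57 and Maf at 11.72, 11.85 and 12.00. Of 16 interferon gamma-induced GTPases and antigen processing genes, 10 were lower (median -0.01), among them Tap1 at 11.31, 10.61 and 10.52 (-0.79). None of these lists but the respiratory chain had a member past 2-fold.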
